A study of Mus musculus with 8 samples.

Results

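The genes of the DNA replication machinery described here are 42 of the 13540 genes in the expression table. They were taken by gene symbol from a list of licensing, helicase, polymerase, clamp and nucleotide supply genes, and all 42 were found. They fall into 9 groups by role: 6 subunits of the origin recognition complex, 3 licensing factors, 6 subunits of the MCM helicase ring, 5 factors that activate the helicase, 8 polymerase and primase subunits, 6 genes of the sliding clamp and its loader, 2 subunits of the single-strand binding protein, 2 genes that join Okazaki fragments and 4 enzymes of nucleotide supply. In the table the genes named most often below have the Ensembl IDs ENSMUSG00000005410 (Mcm5), ENSMUSG00000028587 (Orc1), ENSMUSG00000017499 (Cdc6), ENSMUSG00000020471 (Pold2), ENSMUSG00000031669 (Gins3), ENSMUSG00000020649 (Rrm2) and ENSMUSG00000025747 (Tyms).

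Poly(A) RNA was sequenced from mouse cells of the 129/Ola strain as they were turned from embryonic stem cells into heart muscle cells. Sampling covered 4 stages with 2 libraries each. ESC are the undifferentiated embryonic stem cells of day 0, MES the mesoderm of day 4, CP the cardiac precursors of day 5.3 and CM the cardiomyocytes of day 10. The protocol grew the cells as embryoid bodies in serum-free medium, reaggregated them with human VEGF, Activin A and BMP4, then plated them with VEGF, basic FGF and FGF10. The labels name no genetic change and describe no sorting of the cultures, so each stage is a whole culture of the one strain. The table gives 1 value per gene and stage in RPKM (reads per kilobase of gene model, scaled by sequencing depth), a unit per length in which levels of different genes can be compared. It does not say whether that value rests on both libraries. The differences below therefore have no replicate check, and no test or SD belongs to them.

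Before a cell divides it copies its DNA once. The origin recognition complex marks the start sites, and CDC6 and CDT1 load the ring of MCM2 to MCM7 onto them, a step called licensing that geminin blocks after S phase has begun. CDC45 and the GINS complex turn the loaded ring into an active helicase, polymerase alpha with primase lays down primers, and polymerases epsilon and delta extend the leading and lagging strands while held by the clamp PCNA. Many of these genes are classical targets of E2F transcription factors and are transcribed mainly in cycling cells, and mammalian heart muscle cells are known to leave the cell cycle as they mature.

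The spacing of the low values placed the depth of the ESC column at 75.3 M reads (1 M is 1000000), that of MES at 62.0 M, that of CP at 64.8 M and that of CM at 88.5 M. For all 42 genes whole reads could be recovered from the RPKM values, from 73 reads (Pole2 in CM) to 49804, with a median of 3414 and 1 value under 100 reads. They are minimum numbers, since a common multiple of them would fit the values as well. A 95% Poisson interval from them allows for counting error alone, as the libraries carried no molecular tags against PCR copies. The stage names were matched by their marker genes. The summed RPKM of 6 pluripotency markers was 1788, 87.9, 14.0 and 3.00 in ESC, MES, CP and CM, that of 6 mesoderm markers 7.37, 402, 54.3 and 22.1, and that of 8 cardiomyocyte markers 12.0, 10.0, 1112 and 8657.

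The replication genes were near their stem cell level in MES, lower in CP and far lower in CM. Together they summed to 2012 RPKM in ESC and 1883 RPKM in MES, then to 1166 RPKM in CP and 297 RPKM in CM, while the sum over the whole table stayed between 240579 and 264636 RPKM. The median gene stood at 98.8% of its ESC level in MES, at 64.1% in CP and at 13.6% in CM. Over all genes of the table these medians were 105%, 104% and 95.8%. In whole cultures, fewer cycling cells and less of each RNA per cycling cell cannot be told apart. Below, values are given in the order ESC, MES, CP and CM, and a difference is one of log2(RPKM + 1), a scale that understates the differences of genes with low values. A difference is counted when it reaches 2-fold on that scale.

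**Figure D1:**
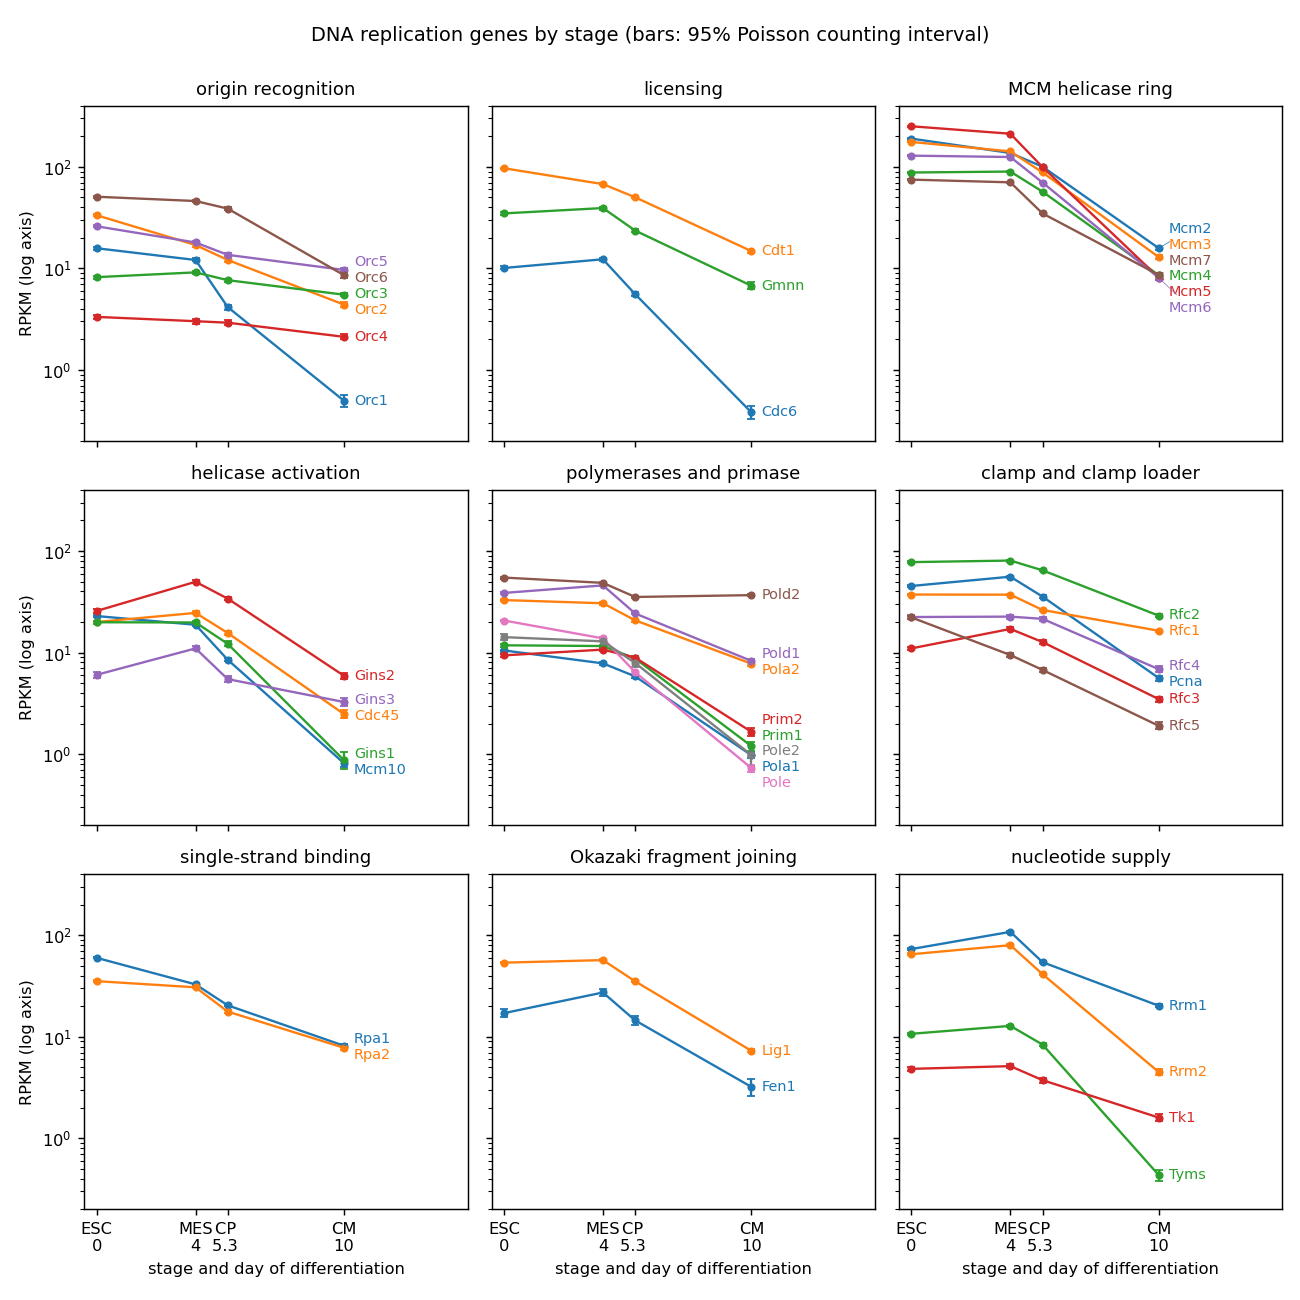
RPKM (log axis) of the 42 replication genes against the day of differentiation, 1 panel per role, with bars for the 95% Poisson counting interval of each value. Nearly all lines are lowest in CM, where Cdc6 (0.382 RPKM), Tyms (0.434) and Orc1 (0.497) are the lowest and Pold2 (36.8) is the highest.

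From ESC to MES, 1 of the 42 genes (Rfc5) was at least 2-fold lower, against 11.2% of all genes, and 0 were at least 2-fold higher, against 11.1% of all genes. The median difference was -0.02, and 0.05 over all genes. The genes were divided, with 23 lower and 19 higher in MES, and 10 of them changed sides under another scaling of the stages, so the direction of these small differences has little weight. From MES to CP, 4 genes (Orc1, Cdc6, Mcm5 and Mcm10) were at least 2-fold lower, against 3.91% of all genes, and 0 were higher, against 8.91%. That count rests on values close to the line, since 1 gene (Orc1) was left, against 3.36% of all genes, when each stage was scaled to the mean of the stage sums, an alternative added after seeing the data. All 42 genes were below their MES value, with a median difference of -0.63 against -0.03 over all genes, although Orc4 and Rfc4 came out just above 0 (0.03 and 0.01) when each stage was scaled to the same sum, Rfc4 (0.01) also with quantile normalization. Pole lay just under the 2-fold line, with 46.4% of its MES level left in CP.

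From CP to CM, 35 of the 42 genes were lower by 2-fold or more, against 12.8% of all genes, and 0 were at least 2-fold higher, against 11.3% of all genes. The median difference was -1.84, against -0.15 over all genes. The 7 genes under 2-fold were Orc3, Orc4, Orc5, Gins3, Pold2, Rfc1 and Tk1. At a minimum of 4-fold, 18 of the 42 were lower in CM than in CP, against 2.36% of all genes. Against ESC, 8 genes were at least 2-fold lower in CP (13.9% of all genes) and 0 higher (17.1% of all genes), and 38 were at least 2-fold lower in CM (23.4% of all genes) and 0 higher (22.2% of all genes). The comparisons share stage values, so they are not independent of each other.

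**Figure D2:**
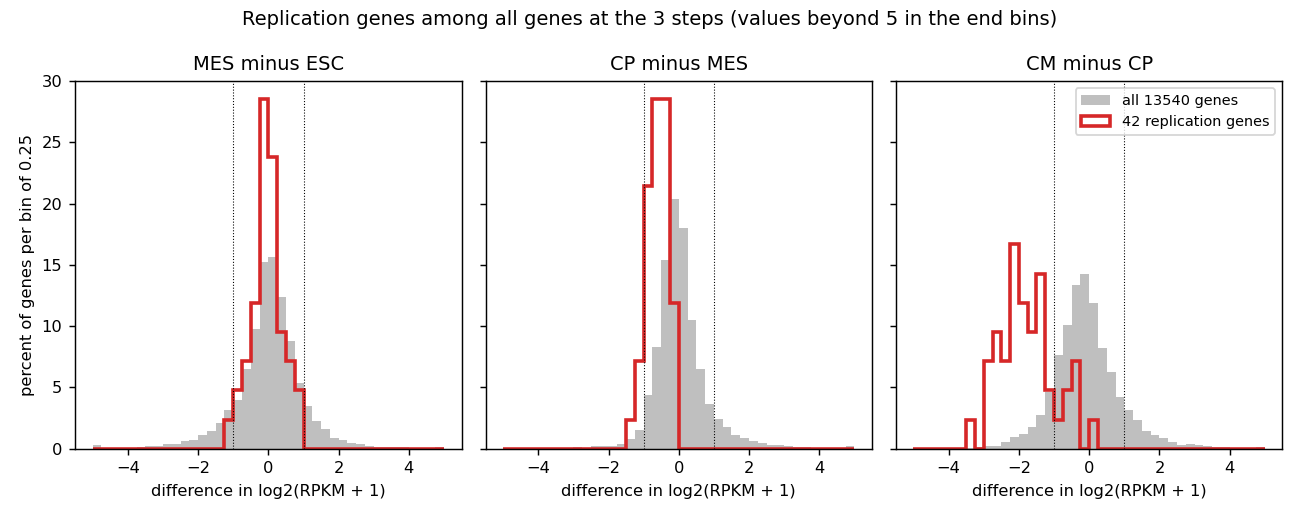
Percent of genes per bin of 0.25 against the difference in log2(RPKM + 1) for the 3 steps between adjacent stages, with all 13540 genes in grey, the 42 replication genes as an outline, and dotted lines at 2-fold. The outline lies over the grey at the first step (median -0.02), to its left at the second (median -0.63) and mostly beyond the 2-fold line at the third (median -1.84).

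Since many replication genes are known E2F targets, their promoters were searched for 4 E2F-type octamers, TTTCCCGC, TTTGGCGC, TTTCGCGC and TTTGCCGC, on both strands of the 250 bases before each start site. Of the 42 genes, 35 matched an entry of the RefSeq promoter table (build GRCm38.p6), with 43 promoters. An octamer stood in 9 of these promoters (20.9%), those of Cdc6, Gins3, Mcm5, Mcm6, Mcm7, Orc1, Orc3, Pola1 and Rfc3. The same search found one in 1.86% of all 32851 promoters and in 3.21% of the 11893 promoters of genes in the expression table. The octamers overlap each other in part, and a match is a description of the letters and not a measured binding site. In the 6 stretches below, each shown 5′ to 3′ on the gene's own strand, capitals mark the matched octamers, read on either strand. They were chosen to set genes with large differences (Mcm5, Mcm6, Orc1 and Cdc6) beside genes with small ones (Orc3 and Gins3).
Mcm5, chr8:75109341-75109382, + strand: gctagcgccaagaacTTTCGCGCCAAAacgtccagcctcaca
Mcm6, chr1:128359730-128359830, - strand: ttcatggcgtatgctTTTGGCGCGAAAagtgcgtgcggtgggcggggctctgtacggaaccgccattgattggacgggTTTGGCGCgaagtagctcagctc
Orc1, chr4:108579412-108579449, + strand: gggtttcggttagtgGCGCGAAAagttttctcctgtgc
Cdc6, chr11:98907998-98908035, + strand: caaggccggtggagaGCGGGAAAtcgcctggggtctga
Orc3, chr4:34614961-34614998, - strand: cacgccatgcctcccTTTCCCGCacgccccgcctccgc
Gins3, chr8:95633503-95633540, + strand: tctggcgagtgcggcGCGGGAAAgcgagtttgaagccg

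The Mcm5 stretch holds 2 overlapping matches that end 142 bases before the start site, and that of Mcm6 holds 3 matches, the nearest ending 40 bases before it. Those of Orc1, Cdc6, Orc3 and Gins3 hold 1 each, ending 20, 131, 34 and 34 bases before the start. Genes with an octamer spanned nearly the whole range of differences. Over the 9 genes with one, the difference between CM and CP had a median of -1.79 and ran from -3.47 (Mcm5) to -0.41 (Orc3). Over the 26 genes with an entry and no octamer, the median was -1.60 and the range -2.95 (Rrm2) to 0.06 (Pold2). The pentamer CCAAT, read on both strands of the same windows, stood in 53.5% of the member promoters, against 33.8% of all promoters and 34.6% of those of genes in the table. The hexamers TTTGAA and TTCGAA, forms of the cell cycle homology region, stood in 16.3%, against 17.1% and 11.8%. The genes without an entry in that table are Gins1, Gins2, Gmnn, Mcm4, Pole, Prim2 and Rfc2.

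The subunits of the origin recognition complex differed widely in how much of their stem cell level was left in CM. Orc1, the large ATPase subunit that joins the complex in each cycle, stood at 15.8, 12.1, 4.16 and 0.497 RPKM, so that 26.4% of its stem cell level was left in CP and 3.15% in CM, the smallest share of any of the 42 genes. Its CM value rested on 189 reads, with a counting interval of 0.428 to 0.573 RPKM. The shares left in CM of Mcm5 (3.22%), Pole (3.51%) and Mcm10 (3.55%) lie within that counting error, so the rank is not firm. For Orc1 the difference between CP and MES was -1.35, the largest of the set at that step. Orc2, a core subunit, stood at 33.4, 17.0, 12.1 and 4.40 RPKM, already lower in MES, with a difference from ESC of -0.93. In the M21 annotation 29.8% of its exon bases overlap Nif3l1 on the other strand.

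Orc3 and Orc4, core subunits as well, declined less than the other subunits of the complex. Orc3 stood at 8.20, 9.14, 7.66 and 5.51 RPKM and Orc4 at 3.33, 3.02, 2.92 and 2.12 RPKM, with 67.1% and 63.6% of the ESC level left in CM. Orc5 stood at 26.0, 18.0, 13.6 and 9.66 RPKM, a slow decline with 37.1% left. Orc6, the small subunit that is the most loosely bound to the complex, stood at 50.8, 46.1, 38.8 and 8.58 RPKM. Its level stayed near that of stem cells through CP, and nearly all of its decline lay between CP and CM (84.4% of the log2 difference from ESC). The ratio of Orc6 to Orc1 was 3.22, 3.80, 9.33 and 17.3. The highest subunit exceeded the lowest by 15.2 times in ESC and by 19.4 times in CM.

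The licensing factors were at least 2-fold lower in CM than in CP in all 3 cases. Cdc6, the ATPase that helps to load the MCM ring, stood at 10.1, 12.3, 5.58 and 0.382 RPKM. Its CM value is the lowest of the 42 genes, rests on 169 reads and has a counting interval of 0.327 to 0.444 RPKM. Cdt1, its partner in loading, stood at 96.9, 67.6, 50.2 and 14.8 RPKM. Gmnn, which encodes the CDT1 inhibitor geminin, stood at 34.8, 39.3, 23.6 and 6.75 RPKM. The ratio of loader to inhibitor, Cdt1 to Gmnn, was 2.78, 1.72, 2.12 and 2.18 over the stages, lowest in MES. Cdc6 had 3.77% of its ESC level in CM, against 15.2% for Cdt1 and 19.4% for Gmnn.

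The 6 genes of the MCM ring, whose proteins form a ring with 1 copy of each, made up the largest share of the summed level, 909.7 of 2012 RPKM in ESC. Their sum was 777 RPKM in MES, 450.1 in CP and 62.1 in CM. Mcm2 stood at 189.8, 137, 100.4 and 15.8 RPKM. Mcm3 stood at 176, 142, 88.2 and 12.9 RPKM. Mcm5 was the highest of all 42 genes in ESC and MES and near the lowest of the ring in CM, at 251, 212, 99.6 and 8.10 RPKM. Its difference between CM and CP was -3.47 and that between CM and ESC was -4.79, the largest of the set in both comparisons. For CM and CP that rank held with most settings, but with a pseudocount of 0.1 Tyms came first (-3.99 against -3.60 for Mcm5), as it did when each stage was scaled to a sum of 1000000 (-3.75 against -3.69).

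Mcm6 stood at 129, 125, 70.1 and 8.08 RPKM and Mcm4 at 88.0, 89.9, 57.0 and 8.56 RPKM. Both were near their stem cell level in MES. Mcm7 stood at 74.9, 70.4, 34.8 and 8.63 RPKM, with 46.5% of the ESC level left in CP and 11.5% in CM. Of its longest transcript, 36.8% of the 32-base words also occur in transcripts of other genes, so its level is uncertain if reads from such words were divided or discarded in counting. The ring genes lay closer together in CM than before. The highest exceeded the lowest by 3.35, 3.01, 2.88 and 1.95 times over the stages, and the ratio of Mcm5 to Mcm2 went from 1.32, 1.54 and 0.992 to 0.513.

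Among the factors that activate the helicase, Gins3 stood apart from the others. Mcm10, which acts when the helicase starts to unwind, stood at 22.9, 18.8, 8.50 and 0.814 RPKM, with 37.1% of the ESC level left in CP and 3.55% in CM. Cdc45, which binds the ring as part of the active helicase, stood at 20.0, 24.6, 15.6 and 2.48 RPKM. Gins1, a subunit of the GINS complex, stood at 19.9, 19.8, 12.2 and 0.872 RPKM. The Gins1 value in CM rests on 117 reads, with a counting interval of 0.721 to 1.04 RPKM.

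Gins2, another GINS subunit, had its highest level in MES, at 25.7, 49.8, 34.0 and 5.91 RPKM, and with Rfc3 it was 1 of 2 genes above the stem cell level in CP. With equal stage sums 5 genes were, since Orc3, Prim2 and Rfc4 then came out at 0.04, 0.06 and 0.07. Overlap with Gse1 on the other strand covers 67.3% of the M21 exon bases of Gins2. Gins3 stood at 6.04, 11.0, 5.48 and 3.26 RPKM. In CM it kept 54.0% of the ESC level, against 4.38% for Gins1, and the ratio of Gins3 to Gins1 was 0.304, 0.559, 0.448 and 3.74. The counterpart subunit Gins4, which is not among the 42 genes, stood at 46.3, 37.0, 23.9 and 13.6 RPKM.

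The catalytic subunits of the polymerases were at least 2-fold lower in CM than in CP, while the accessory subunits of polymerase delta were not uniform. Pola1, the catalytic subunit of polymerase alpha, stood at 10.5, 7.83, 5.83 and 0.977 RPKM. Its partner Pola2 stood at 32.9, 30.6, 20.8 and 7.77 RPKM. The primase subunits Prim1 and Prim2 make the RNA primers. Prim1 stood at 11.8, 11.6, 8.75 and 1.20 RPKM. Prim2 stood at 9.39, 10.7, 8.93 and 1.66 RPKM and was thus still at 95.1% of its ESC level in CP.

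Pole, the catalytic subunit of the leading-strand polymerase epsilon, was lower at each step, at 20.7, 13.8, 6.42 and 0.728 RPKM. Pole2, its second subunit, stood at 14.2, 12.9, 7.91 and 0.978 RPKM. Its CM value has the fewest recovered reads of any value here (73, interval 0.767 to 1.23 RPKM). These reads are a minimum, and the recovered gene model has 843 bases against 2881 exon bases in M21, so that rank is not firm. The other subunits of polymerase epsilon, outside the 42 genes and chosen after their values were seen, had higher levels in CM than Pole and Pole2. Pole4 was above both in ESC as well, while Pole3 lay between them there. Pole3 stood at 15.8, 21.7, 18.4 and 15.9 RPKM. Pole4 stood at 23.6, 13.0, 9.45 and 6.04 RPKM. Both of these proteins are histone-fold subunits that do not carry the catalytic activity.

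Pold1, the catalytic subunit of the lagging-strand polymerase delta, stood at 38.7, 45.9, 24.3 and 8.28 RPKM. Pold2, its regulatory subunit, stood at 54.8, 48.6, 35.3 and 36.8 RPKM and was the exception among the 42 genes. It is the highest of them in CM, its lowest value is in CP, and its difference between CM and CP was 0.06 (-0.05 when each stage was scaled to the same sum). The counting interval in CM was 35.9 to 37.8 RPKM. The ratio of Pold2 to Pold1 was 1.42, 1.06, 1.45 and 4.45. The neighbours of Pold2 in the M21 annotation are Aebp1 on the other strand, at 2.38, 3.96, 16.3 and 76.3 RPKM, and Myl7, the atrial myosin light chain gene, on the same strand, at 4.27, 68.1, 1196 and 3502 RPKM. None of the exon bases of Pold2 overlap another gene there, and the part of its neighbours in its value was not tested.

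The smallest subunit of that polymerase went the other way. Pold4, from the list of other replisome subunits, stood at 2.48, 3.92, 9.83 and 34.0 RPKM, and its ratio to Pold1 was 0.0639, 0.0855, 0.404 and 4.10. Pold3, the remaining subunit, stood at 13.2, 18.3, 10.6 and 3.33 RPKM. In CM the levels of the 4 subunits thus formed a high pair, Pold2 and Pold4, and a low pair, Pold1 and Pold3.

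**Figure D3:**
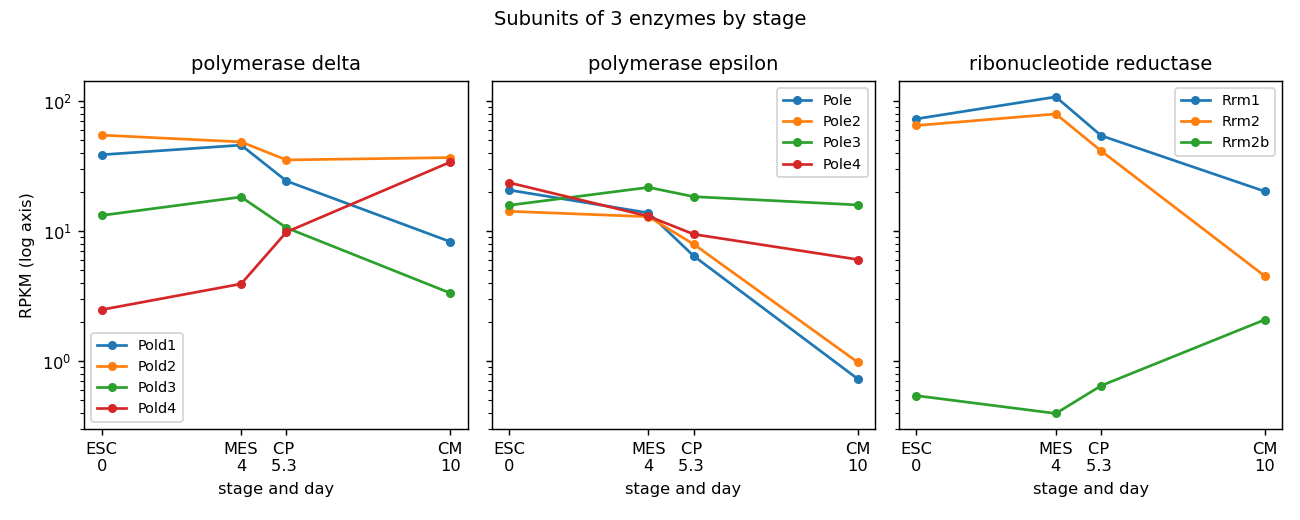
RPKM (log axis) by stage for the subunits of polymerase delta, polymerase epsilon and ribonucleotide reductase, 1 value per stage and gene. In CM the lines of Pold2 (36.8) and Pold4 (34.0) lie above Pold1 (8.28), Pole3 (15.9) lies above Pole (0.728), and Rrm2b (2.08) has come near Rrm2 (4.49).

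Pcna, the clamp that holds the polymerases on DNA, stood at 45.3, 55.9, 35.6 and 5.61 RPKM, with a difference between CM and CP of -2.47. Of its longest transcript 37.5% of the 32-base words occur in other transcripts, so its level carries the same uncertainty as that of Mcm7. Rfc1, the large subunit of the clamp loader, stood at 37.3, 37.2, 26.3 and 16.4 RPKM, with 43.9% of its ESC level left in CM. The small subunits Rfc2 to Rfc5 are related ATPases or their partners. Rfc2 stood at 77.8, 80.6, 64.6 and 23.1 RPKM. Rfc3 stood at 11.0, 17.1, 12.7 and 3.48 RPKM. Rfc4 stood at 22.4, 22.6, 21.5 and 6.86 RPKM.

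These 3 subunits kept 83.1% to 116% of their ESC level in CP and 29.7% to 31.7% in CM. Rfc5 followed another course, at 22.2, 9.46, 6.75 and 1.90 RPKM. It had the largest difference of the set between MES and ESC, -1.15, and 8.58% of its ESC level was left in CM. Between CP and CM the difference passed 2-fold for 5 of the 6 clamp and loader genes.

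Rpa1 and Rpa2 encode the larger subunits of the protein that covers single-stranded DNA. Rpa1 stood at 59.9, 32.8, 20.4 and 8.16 RPKM. Rpa2 stood at 35.3, 30.7, 17.7 and 7.79 RPKM. Their levels came together, with an Rpa1 to Rpa2 ratio of 1.70, 1.07, 1.15 and 1.05. Fen1, the nuclease that trims Okazaki fragments, stood at 17.1, 27.3, 14.5 and 3.21 RPKM. The recovered gene model of Fen1 is short (383 bases, 109 reads in CM, interval 2.64 to 3.88 RPKM), and 84.2% of its M21 exon bases overlap Gm10143 and Tmem258 on the other strand. Lig1, the ligase that seals the fragments, stood at 53.7, 56.9, 35.2 and 7.28 RPKM.

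All 4 genes of nucleotide supply had their highest value in MES, Tk1 by a margin that another scaling reversed. Rrm1, the large subunit of ribonucleotide reductase, which makes deoxyribonucleotides, stood at 73.1, 108, 54.3 and 20.2 RPKM. Rrm2, its S-phase small subunit, stood at 65.0, 79.8, 41.4 and 4.49 RPKM, so the ratio of Rrm1 to Rrm2 was 1.12, 1.35, 1.31 and 4.51. Rrm2b, the small subunit known from resting cells, is not among the 42 genes and was chosen after its values were seen. It stood at 0.540, 0.394, 0.645 and 2.08 RPKM, and its ratio to Rrm2 was 0.00831, 0.00494, 0.0156 and 0.463. Rrm2 was therefore still the higher of the small subunits in CM.

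Tyms, thymidylate synthase, stood at 10.7, 12.8, 8.38 and 0.434 RPKM. It kept 78.1% of its ESC level in CP and 4.04% in CM, and its CM level was 5.18% of that in CP, the smallest such share of the 42 genes. The CM value rests on 234 reads, with a counting interval of 0.380 to 0.493 RPKM. Tk1, the thymidine kinase of the salvage pathway, stood at 4.83, 5.14, 3.74 and 1.60 RPKM, with 33.2% of its ESC level left in CM.

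The pace of the decline differed between genes. By CP, the share of replication genes at or below 50% of their ESC level was close to that of all genes (18.1%), with 8 such genes. These were Orc1, Orc2, Mcm5, Mcm7, Mcm10, Pole, Rfc5 and Rpa1, and Mcm3 (50.0%) and Rpa2 (50.2%) lay just above that line. By CM, 15 genes were at or below 10% of their ESC level, against 7.0% of all genes (948 of 13540). They comprised 5 of the 6 MCM ring genes, with Orc1, Cdc6, Mcm10, Gins1, Pola1, Pole, Pole2, Rfc5, Rrm2 and Tyms. Of these 15, Tyms (78.1%), Mcm4 (64.8%), Rrm2 (63.7%) and Gins1 (61.6%) had the largest shares left in CP.

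**Figure D4:**
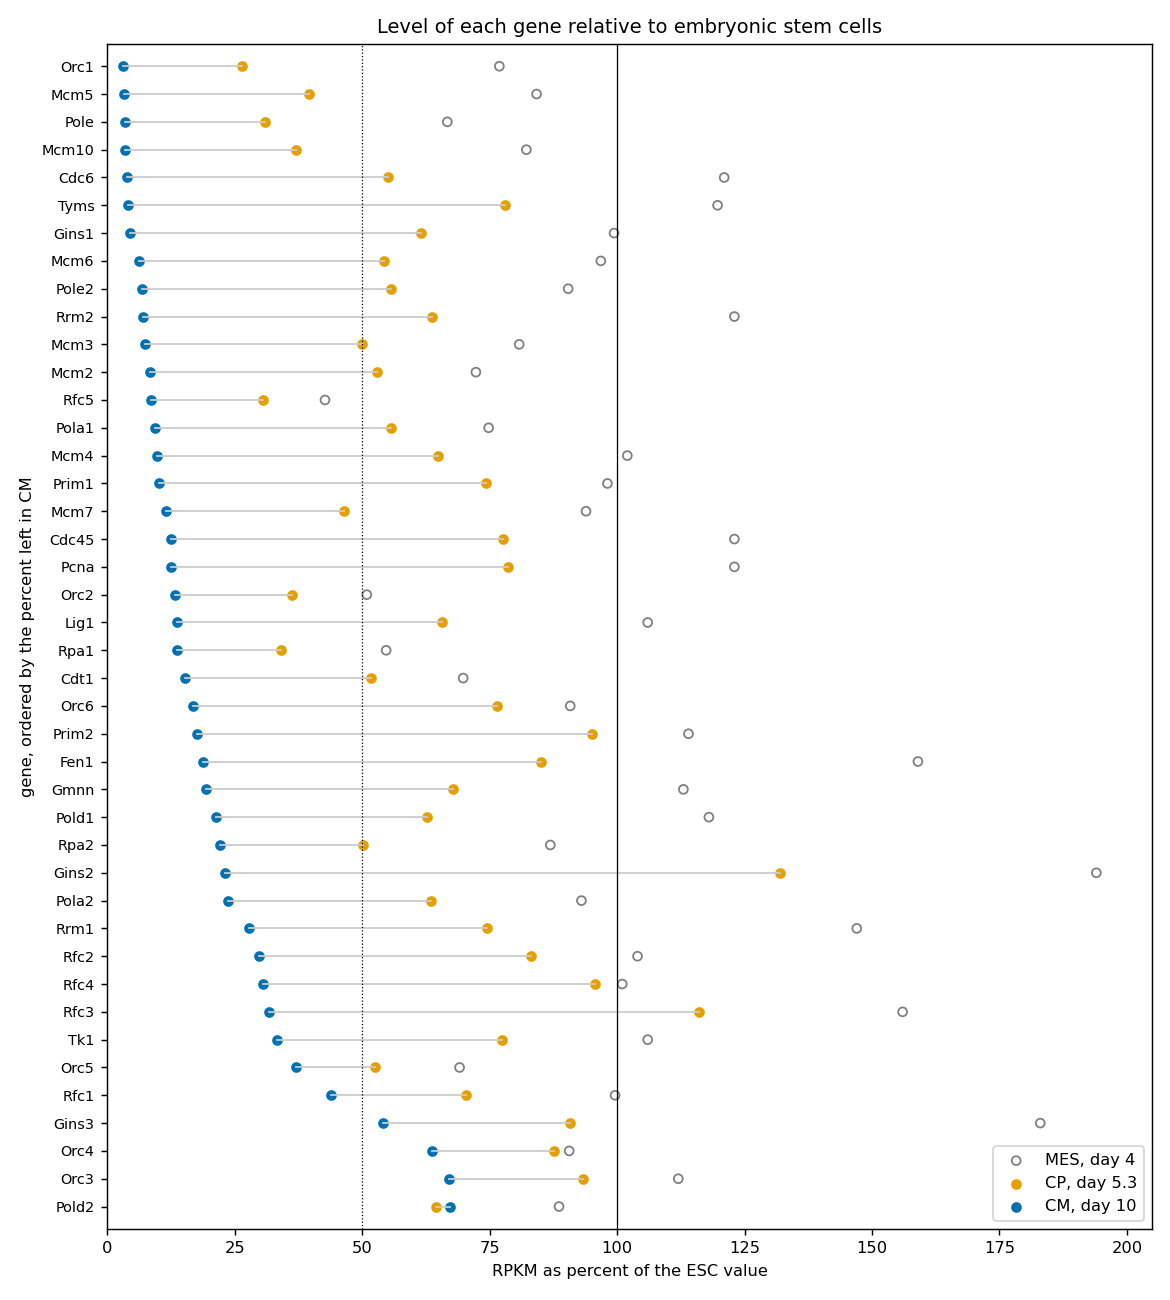
RPKM of each of the 42 genes in MES, CP and CM as a percent of its ESC value, ordered by the percent left in CM, with lines at 50% and 100%. In CM the genes run from 3.15% (Orc1) to 67.2% (Pold2), and in MES Gins2 (194%) and Gins3 (183%) lie farthest above the ESC level.

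Of the 38 genes that were 2-fold or more below ESC in CM, 34 had over 50% of that log2 difference after CP, against 39.5% of the 3173 genes of the table that were as much lower. The other 4 were Orc2 (47.9% of the difference after CP), Orc5 (34.2%), Rfc5 (47.3%) and Rpa1 (44.8%). Stepwise decline was common too. Lower values at each of the 3 steps were found in 22 genes, against 16.5% of all genes. The lowest value was in CM for 41 genes, against 39.4% of all genes. The highest was in ESC for 23 genes, against 30.5%, and in MES for 19, against 22.8%.

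The intervals differ in length, 4.0 days from ESC to MES, 1.3 days from MES to CP and 4.7 days from CP to CM, so the differences were also divided by days. Per day, the median difference was -0.49 from MES to CP and -0.39 from CP to CM, against -0.02 and -0.03 over all genes. The order of these members' medians depends on the scaling. When all stage sums were made 1000000, the undivided medians were -0.57 from MES to CP and -2.23 from CP to CM. Divided by 1.3 and 4.7 days, the later step is then somewhat the steeper. Under the other scalings the earlier step stayed the steeper, by little with the mean stage sum (-0.56 and -1.93 undivided). Of the 41 genes lower at both of these steps, 25 had the steeper average from MES to CP. That share is below the 78.7% found among the 4829 genes of the table lower at both steps. Orc1 had the steepest average of the set, -1.04 per day from MES to CP and -0.38 per day from CP to CM. Mcm5 was steep in both intervals, at -0.83 and -0.74 per day, and Rfc4 showed the reverse order, at -0.05 and -0.32. With values at the ends of an interval alone, the course within it is not known.

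**Figure D5:**
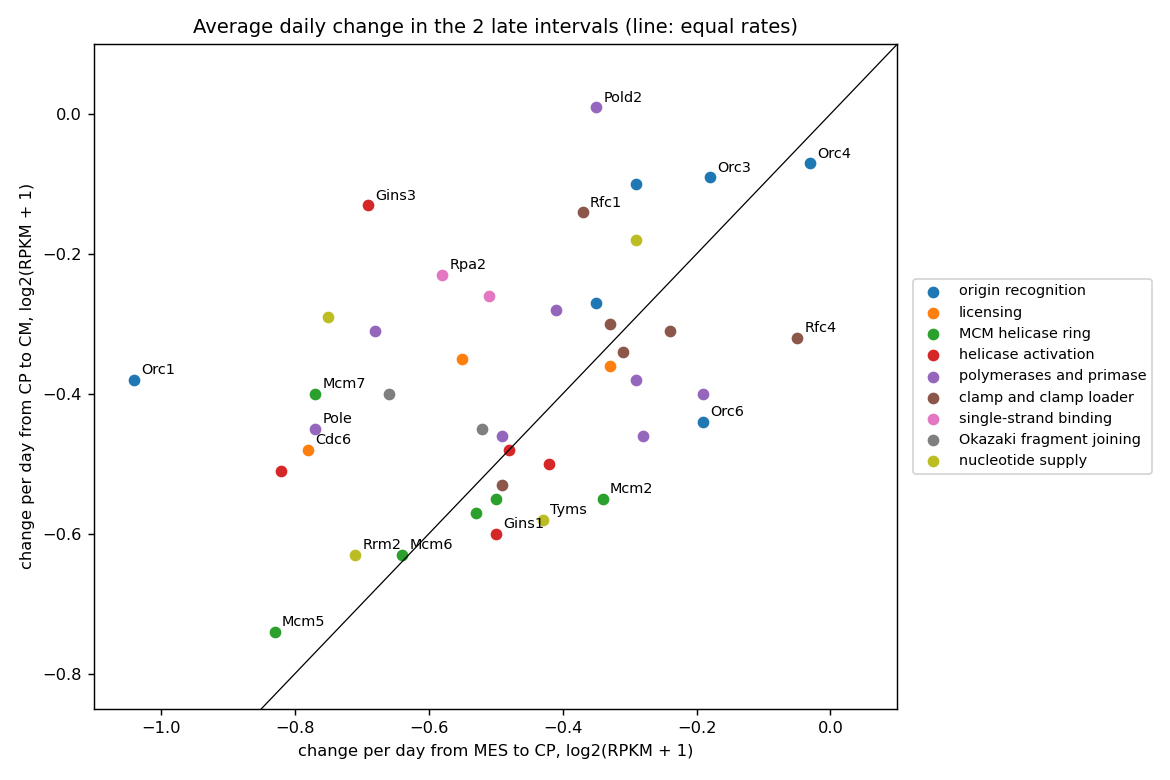
Average difference per day in log2(RPKM + 1) from CP to CM against that from MES to CP, 1 point per gene, coloured by role, with a line of equal rates. Orc1 (-1.04 and -0.38) lies far above the line, Mcm5 (-0.83 and -0.74) lies at the lower left, Rfc4 (-0.05 and -0.32) lies below the line, and Pold2 is the single point above 0 on the vertical axis.

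Other genes that act in DNA replication or its control were lower in CM as well, though less evenly. Of 11 origin firing factors, 8 were at least 2-fold lower in CM than in CP and 0 higher, with a median difference of -1.60. At that step 12.8% of all genes were at least 2-fold lower and 11.3% higher, also the background for the lists that follow. Ccne1, the cyclin E of the G1 to S transition, stood at 99.1, 38.2, 13.7 and 3.22 RPKM and was thus much lower already in MES. Dbf4, the activator of the CDC7 kinase, stood at 64.5, 41.7, 23.7 and 5.64 RPKM. Ccna2, the cyclin A of S phase, stood at 70.5, 67.1, 41.4 and 15.1 RPKM. Topbp1, a scaffold that helps to assemble the helicase, stood at 38.1, 44.4, 25.7 and 7.82 RPKM. Ccna2 and Topbp1 were thus close to or above their stem cell level in MES. Rif1, which acts on the timing of origins, was low already in MES and under 2-fold between CP and CM, at 44.3, 15.1, 11.7 and 6.35 RPKM. Cdk2, the kinase partner of cyclin E, was under 2-fold, at 34.2, 42.2, 34.8 and 17.9 RPKM.

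Of 11 genes of fork protection and the replication checkpoint, 7 were at least 2-fold lower and 0 higher (median -1.66). Timeless stood at 28.7, 24.6, 16.1 and 1.54 RPKM, and its partner Tipin at 65.2, 39.1, 29.1 and 5.45 RPKM. Wdhd1, which links the helicase to polymerase alpha, stood at 12.0, 15.9, 8.78 and 1.23 RPKM. The genes of the checkpoint clamp and its loader gave mixed values. Rad9a stood at 12.7, 22.8, 14.1 and 5.13 RPKM. Rad1, at 18.9, 13.9, 7.44 and 5.29 RPKM, and Rad17, at 13.3, 9.77, 8.80 and 6.59 RPKM, were under 2-fold between CP and CM. Of 6 alternative clamp loaders and relatives of the ring, 5 were lower and 0 higher (median -1.34). Chtf18 and Chtf8 belong to a loader of the clamp that also serves cohesion. Chtf18 stood at 36.4, 25.1, 14.9 and 2.34 RPKM. Chtf8 stood at 56.1, 92.2, 64.1 and 26.8 RPKM. Atad5, which takes the clamp off DNA, stood at 7.60, 7.84, 6.39 and 1.71 RPKM. The relatives of the ring split, with Mcm8 at 6.07, 8.23, 5.43 and 1.83 RPKM and Mcm9, under 2-fold, at 3.51, 3.54, 3.90 and 2.63 RPKM.

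Chromatin assembly behind the fork showed a larger median than the replication genes themselves. Between CP and CM, 7 of 8 such genes were lower by 2-fold or more and 0 were higher, with a median of -2.33. Nasp, a histone chaperone, stood at 81.4, 93.4, 52.5 and 5.01 RPKM. Uhrf1, which brings DNMT1 to new DNA, stood at 60.2, 73.4, 42.6 and 4.42 RPKM. Dnmt1, the maintenance methyltransferase, stood at 77.2, 80.9, 71.2 and 14.9 RPKM. Nasp and Uhrf1 were higher in MES than in ESC, and Dnmt1 was near its ESC level there (105%). Chaf1a, the large subunit of a chaperone that deposits histones on new DNA, stood at 42.0, 51.3, 32.9 and 4.61 RPKM. Asf1a, another histone chaperone, was under 2-fold, at 19.8, 19.9, 13.2 and 7.36 RPKM.

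Of 12 other replisome subunits, 4 were lower, Pold4 was higher and 7 were under 2-fold (median -0.87). Top2a, the topoisomerase of cycling cells, stood at 90.0, 85.7, 66.0 and 13.1 RPKM. Top1, the other main nuclear topoisomerase, stood at 20.2, 31.5, 22.3 and 7.78 RPKM. Rnaseh2c, a subunit of the nuclease that removes RNA from DNA, was under 2-fold, at 21.5, 35.9, 39.8 and 21.1 RPKM. Of 10 other genes of nucleotide supply, 5 were lower and 0 higher (median -1.12). Rrm2b, described above, lay just under the line (0.91), although its CM level was 323% of its low CP level. Dut, which removes dUTP, stood at 56.0, 54.8, 29.0 and 8.79 RPKM. Shmt1, an enzyme of folate metabolism that feeds thymidylate synthesis, stood at 54.8, 26.8, 10.6 and 3.63 RPKM. Nme1, a nucleoside diphosphate kinase, stood at 48.4, 51.0, 28.2 and 7.11 RPKM. Shmt1 thus had less of its stem cell level left in CP than Dut and Nme1 had. Samhd1, which breaks down deoxyribonucleotides, stood at 8.42, 7.26, 9.83 and 3.02 RPKM. Dctd, a deaminase on the way to thymidylate, was under 2-fold, at 22.4, 26.7, 14.7 and 7.30 RPKM. Dck, a salvage kinase, was under 2-fold, at 11.4, 15.9, 13.9 and 9.18 RPKM.

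Markers of other cell types moved between the same stages. From CP to CM, 7 of 8 cardiomyocyte markers were at least 2-fold higher and 0 lower. Over that step 4 of 6 endothelial markers and 5 of 5 blood markers were at least 2-fold lower, with summed levels of 284 and 94.3 RPKM for endothelial markers and of 252 and 9.22 RPKM for blood markers in CP and CM. Before CP, the summed levels were 21.4 RPKM in ESC and 1.43 in MES for endothelial markers and 1.16 and 2.30 for blood markers, with Hbb-bh1 listed at 0 in ESC and Hba-x in ESC and MES. Smooth muscle markers, some of which early heart muscle also expresses, were at least 2-fold higher in CM than in CP in 3 of 4 cases and lower in 0, at 273, 6.66, 566 and 2429 RPKM over the stages. Fibroblast markers were higher in 4 of 5 cases and lower in 1, at 17.0, 49.6, 80.3 and 249.6 RPKM. Neural markers summed to 112, 19.1, 21.6 and 14.6 RPKM and endoderm markers to 0.875, 73.2, 15.8 and 4.40 RPKM. The part of these other cells in the levels of the replication genes was not tested.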

How the data were processed

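Poly(A) RNA of 8 libraries, 2 for each of 4 stages, was sequenced. Reads were aligned with Novoalign 2.07.00 to mm9, per the submitters' processing notes. How reads were counted, on which annotation, how genes were filtered and whether libraries were combined is not given in the sources used here. Values as deposited are RPKM per the file headers, with 1 column per stage, so the limma test foreseen for replicate columns was not used. Every gene reaches at least 1.00 RPKM in some stage. From the RPKM values differences of log2(RPKM + 1) were computed (pseudocount 1) with Python 3.11.15, pandas 2.3.3 and numpy 2.4.6, and counted at 2-fold.

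Depth and reads were recovered from the steps of the RPKM values. In simulated reads for the same 42 genes, reads were correct for 38 genes, wrong for 2 and not recovered for 2. Exon overlap and shared 32-base words came from GENCODE M21, which is on another build than the table, and no table coordinates are given. Nothing states whether strand was used in counting, and without it reads of overlapping genes on opposite strands cannot be told apart. Of the genes of the other lists, 4 had an older symbol in the table and were found by Ensembl ID, and 5 genes of the lists (Atrip, Ptprc, Dcn, Sox1 and Afp) were not analysed here. The members, the lists and the tests were chosen with earlier results of these data known. All members are named; of each other list up to 4 genes at least 2-fold apart between CM and CP and up to 2 others are named where the list is described, those with the highest mean RPKM, and exceptions are stated.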

Additional observations from a re-analysis of the deposited data

How the results depend on the processing

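No paired analysis was possible because the table gives 1 value per stage; leaving out each replicate was not run for the same reason. The alternatives were pseudocounts of 0.1 and 0.5, folds of 1.5 and 4, 3 other scalings, and a minimum of 3 RPKM, and, added after seeing the data, scaling to the mean stage sum. At 1.5-fold, 3 genes were lower and 4 higher in MES than in ESC (1 and 0 at 2-fold; 19.4% and 21.8% of all genes), 22 were lower in CP than in MES (4; 13.3% of all genes) and 24 lower in CP than in ESC (8; 24.5%). At 4-fold these counts of lower genes were 0, 0 and 0 (3.47%, 0.871% and 3.66% of all genes), and 18 were lower in CM than in CP (35; 2.36%). With median-of-ratios scaling 2 genes were lower in MES than in ESC (12.5% of all genes). Where all stages summed to 1000000, 1 was higher in MES than in ESC (16.2% of all genes). Scaled to the mean stage sum, 1 was lower in CP than in MES (3.36% of all genes). At or below 50% of ESC by CP were 13 genes with median-of-ratios scaling, against 20.2% of all genes (8 and 18.1% as reported). At a threshold of 67% there were 24, against 28.3% of all genes. The other counts at 2-fold and by CP were within 1.5 times of those reported under each alternative run; the 34 genes with most of the difference after CP ranged from 31 to 37. Of 602 recomputed differences of at least 2-fold, 592 stayed there and 10 did not, among them Mcm7 in CP against ESC (-0.96 with a sum of 1000000, -0.95 with the mean stage sum, -0.86 with quantile normalization), Cdc6 in CP against MES (-0.97) and Rpa2 in CM against CP (-0.95) with median-of-ratios scaling, and Mcm5 in CP against MES (-0.98) and Rfc1 in CM against ESC (-0.96) with quantile normalization. Scaling to a sum of 1000000 also lessens the weight of the pseudocount, and it shifted the median of all genes for CM against CP from -0.15 to -0.29 and the members' from -1.84 to -2.23. Scaling to the mean stage sum keeps that weight and gave -0.23 and -1.93, pseudocounts of 0.5 and 0.1 gave members' medians of -2.06 and -2.15, and median-of-ratios scaling gave -0.04 and -1.73. For CP against ESC the median of all genes went from 0.05 to 0.18 and 0.15 with the scalings by sum. In the last 100 bases before the start, octamers stood in 5 member promoters (11.6%, against 0.846% of all). Depth limited the lowest values, such as Pole2 in CM at 73 recovered reads, which are a minimum.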

Other observations

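The E2F factors and pocket proteins that act on replication genes gave divided values. Of 13 such genes, 6 were lower in CM than in CP by 2-fold or more, 1 was higher and 6 were under 2-fold. Their median difference in log2(RPKM + 1) was -0.74. Of all genes, 12.8% were lower and 11.3% higher at that step. E2f1, an activator of S-phase genes, had 18.6 RPKM in ESC, 20.7 RPKM in MES, 11.3 RPKM in CP and 4.83 RPKM in CM, an order kept below. E2f7, a repressor of the family, stood at 8.74, 13.2, 8.19 and 1.41 RPKM. Tfdp1, a dimer partner of E2F1, stood at 31.7, 27.5, 17.7 and 5.31 RPKM. E2f5, a member bound by pocket proteins, stood at 10.9, 27.3, 16.6 and 5.28 RPKM, and E2f6, which acts without them, was under 2-fold, at 10.3, 33.7, 26.5 and 22.9 RPKM. The gene that was higher was Rbl2, which encodes the pocket protein p130 known from resting cells, at 1.44, 0.734, 0.857 and 6.50 RPKM. It was chosen after its values were seen. E2f4, a partner of p130, was under 2-fold between CP and CM, at 98.6, 69.2, 43.0 and 27.7 RPKM. Of 7 genes of the MuvB complex and its partners, 3 were lower in CM than in CP and 0 higher (median -0.63). Mybl2 stood at 91.8, 13.4, 9.44 and 1.87 RPKM and was thus already much lower in MES, while Foxm1 stood at 16.1, 29.4, 17.0 and 3.46 RPKM. Rbbp4, a histone-binding subunit shared with other complexes, stood at 39.0, 43.9, 36.7 and 15.4 RPKM. The subunits Lin37 (8.23, 6.16, 4.35 and 7.03 RPKM) and Lin9 (5.22, 3.67, 2.88 and 2.44 RPKM) were under 2-fold.

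Genes of translesion synthesis and repair and of mitochondrial DNA replication had smaller median differences from CP to CM than the 42 genes (-1.84). Over all genes that median was -0.15. Of 11 translesion and repair polymerases and ligases, Polq was at least 2-fold lower (2.65, 4.52, 3.30 and 0.688 RPKM), Polk was higher (4.18, 2.93, 3.43 and 8.80 RPKM) and 9 were under 2-fold, with a median of -0.17. Over all genes 12.8% were lower and 11.3% higher at that step, so these counts are near the background. Rev1, a translesion polymerase, stood at 18.1, 12.5, 13.9 and 13.2 RPKM, and the ligase gene Lig3 at 16.5, 18.6, 13.6 and 10.00 RPKM. Of 8 genes that copy mitochondrial DNA, 1 was lower and 0 higher (median -0.34), counts again near the background. That gene was Polg, the mitochondrial polymerase, at 25.2, 45.0, 39.6 and 11.1 RPKM, whereas the helicase Twnk stood at 19.3, 25.0, 12.2 and 15.5 RPKM and the RNA polymerase Polrmt at 19.8, 16.6, 13.2 and 11.0 RPKM.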
